A study of Mus musculus with 6 samples.

Results

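Pericytes of the mouse cerebral cortex at postnatal day 12 (P12) were taken from 2 BD Rhapsody single-cell libraries by a rule on their transcripts. A barcode was kept as a cell when it held at least 1500 unique molecular identifiers (UMIs, 1 per captured transcript) with at most 17% of them from mitochondrially encoded genes. It was kept as a pericyte when at least 4 of 7 pericyte markers (Rgs5, Vtn, Abcc9, Kcnj8, Atp13a5, Art3 and Higd1b) had a UMI and when at most 2 UMIs in total fell on 7 genes of other cells (Myh11, Cnn1, Cldn5, Tie1, Aqp4, P2ry12 and Col1a1). The rule found 251 pericytes among 3015 cells of the control library and 374 among 4750 cells of the mutant library, 625 of 7765 in all. The 6 libraries of the series held 78673 cells.

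Pericytes are mural cells that lie inside the capillary basement membrane, in contact with endothelial cells. In the brain they take part in the blood-brain barrier, in the control of capillary diameter and in the transport of solutes, and they make vascular matrix and growth factors. Nodal is a secreted ligand of the TGF-beta family. It acts through activin receptors and an EGF-CFC co-receptor, which lead to phosphorylation of SMAD2 and SMAD3, and it is best known for patterning the early embryo.

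The control library came from Nodal lox/lox mice and the mutant library from Nodal iPCKO mice, in which loxP-flanked Nodal alleles were combined with the Pdgfrb(BAC)-CreERT2 transgene, a tamoxifen-inducible Cre recombinase. All mice received 50 µg tamoxifen on each day from P1 to P3. The transgene is driven by Pdgfrb sequences, so that smooth muscle cells and other cells that use them are targets besides pericytes, and the Nodal lox/lox genotype of the controls holds no CreERT2. Cortices of 2 mice per genotype, grouped irrespective of sex, were pooled before capture, after removal of the meninges and of myelin debris. Each genotype is therefore 1 library, no difference below has a replicate, and no test was made. Intervals are 95% intervals that cover counting error only, exact Poisson for levels, exact binomial (Clopper-Pearson) for shares of cells and conditional exact for ratios. Genotype, transgene, pool of mice and library cannot be told apart.

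The libraries held 33889545 (control) and 54791946 (iPCKO) UMIs, of which the pericytes held 1471467 and 2248274. A pericyte had 1638 to 13312 UMIs in control (median 5732) and 1530 to 19654 in iPCKO (median 5544.5), so that depth per cell was alike. Pericytes made up 8.33% (7.36 to 9.37) of control cells and 7.87% (7.12 to 8.68) of iPCKO cells, and these intervals overlap. Shares of dissociated cells depend on which cells survive dissociation. Of 912673 possible barcodes, 20 occurred in cells of both cortical libraries and 0 in pericytes of both.

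The markers chose these cells, so their levels describe the rule. Levels are given as CPM, the UMIs of a gene per 1000000 UMIs summed over all pericytes of a library. Vtn (vitronectin) was at 6129 CPM in control and 5063 CPM in iPCKO pericytes, Rgs5, a regulator of G-protein signalling, at 25840 and 22956 CPM, and the potassium channel subunits Kcnj8 and Abcc9 at 1174 and 973 CPM and at 2454 and 1948 CPM. All 7 markers were detected in 201 control cells (80.1%) and in 264 iPCKO cells (70.6%). Mural genes outside the rule were present too. Notch3, the Notch receptor of mural cells, was at 1687 CPM in control and 1582 CPM in iPCKO pericytes against at most 5.26 CPM in endothelial cells of either library, and Cspg4 (NG2) was at 1102 and 1082 CPM.

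Cells just inside and just outside the limit on the number of markers were few, and more lay at the limit on other-cell genes. With at most 2 UMIs on the other-cell genes, 11 control and 20 iPCKO cells had exactly 4 markers, and 4 and 10 cells with 3 markers were left out. The 4 control cells with 3 markers had 27.7 CPM of Pdgfrb and 2215 CPM of the neuronal gene Snap25, whereas the 11 with 4 markers had 375 CPM of Pdgfrb, 2213 CPM of Notch3, 2088 CPM of Acta2 and 0 CPM of Snap25. In iPCKO this contrast was smaller, as the 10 cells with 3 markers had 744 CPM of Pdgfrb, 1329 CPM of Notch3, 2278 CPM of Acta2 and 570 CPM of Snap25, beside 1786, 2229, 1063 and 0 CPM in the 20 with 4 markers. Acta2 (smooth muscle actin) was at 121 CPM in the control cells with all 7 markers. Exactly 2 UMIs on the other-cell genes were found in 35 and 64 pericytes, and 17 and 40 cells with more than 2 and up to 3 were left out. The limit on other-cell genes left out 85 control and 143 iPCKO cells that had at least 4 markers. Of the cells kept, 16 and 19 also met a like rule for vascular smooth muscle cells (vSMC), built on Acta2, Tagln, Myh11, Cnn1, Myl9, Pln and Lmod1. These cells are counted in both classes below.

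Lists of markers of other cell types were summed in the pericytes, and the part of RNA from other cells in the differences below was not tested. The 7 other-cell genes of the rule are members of these lists. The rule allows them at most 2 UMIs in total per cell, so part of the low sums is set by the rule. Some members, such as Slc6a13, Rarres2 and Acta2, are also in the lists of mural, secreted or contractile genes used here. The sums may therefore hold RNA that the pericytes made themselves. The summed level of 10 microglia and macrophage markers was 123 CPM in control and 237 CPM in iPCKO pericytes, and 2 cells held 59.5% of the latter. In barcodes of 10 to 200 UMIs, which hold mostly RNA free in the suspension, these markers stood at 3458 and 2872 CPM. Endothelial markers were at 321 and 384 CPM, astrocyte markers at 63.9 and 49.6 CPM, neuron markers at 493 and 470 CPM, oligodendrocyte lineage markers at 28.5 and 25.8 CPM and erythrocyte genes at 6.8 and 6.45 CPM. Smooth muscle markers (1779 and 1562 CPM), fibroblast markers (2021 and 2042 CPM) and ependymal and choroid plexus markers (360 and 323 CPM) made up the rest. In free RNA these stood lower, at 439 and 370, 695 and 468, and 281 and 121 CPM. Among defining markers that are no part of the rule, Pf4 of the macrophages, Lum and Dpt of the fibroblasts and Mog and Mobp of the oligodendrocytes were at 0 in both. Of the 10 markers in each of these lists, 9 of the microglia and macrophages, 8 of the fibroblasts and 8 of the oligodendrocyte lineage had a UMI in iPCKO pericytes.

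Nodal was found in control pericytes and in none of the iPCKO pericytes. The gene lies on chromosome 10 at 61253587-61261117 (GRCm39, plus strand). In control pericytes it had 160 UMIs, or 109 (92.5 to 127) CPM, in 92 of 251 cells (36.7%, 30.7 to 42.9). In iPCKO pericytes it had 0 UMIs in 374 cells, so that cells with a Nodal UMI may make up to 0.802% of them by a floor of 3 counts and 0.981% by the exact interval. Against this floor of 3 UMIs over the group, Nodal was at least 81.5-fold lower in iPCKO pericytes. The reads come from the 3′ part of transcripts, and which exons the loxP sites flank was not used here, so that a value of 0 checks the label without naming the deleted exons.

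Among control pericytes the Nodal UMIs were spread over many cells. No Nodal UMI was found in 159 cells, 1 in 55, 2 in 23 and 3 or more in 14. In 3 groups of 84, 83 and 84 cells ordered from few to many UMIs, 36.9, 42.2 and 31.0% of cells had a Nodal UMI, and the level was lower in deeper cells, at 176, 111 and 81.7 CPM. Of the 16 control pericytes that also met the vSMC rule, 1 had a Nodal UMI, and these 16 are counted among the vSMC as well. After each cell was thinned to 1500 UMIs, 12.7% of control pericytes kept one. In the other classes of the control library Nodal was found in 2 of 110 vSMC, 1 of 892 microglia, 0 of 799 endothelial cells, 0 of 645 astrocytes and 0 of 86 fibroblasts, at median depths of 6189.5 UMIs or more per cell. In the iPCKO library Nodal was found in 3 of 1428 microglia, 1 of 754 astrocytes, 0 of 140 vSMC, 0 of 1445 endothelial cells and 0 of 94 fibroblasts. Free RNA held 6.5 CPM of Nodal in control and 0.3 CPM in iPCKO.

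Of 22 genes of Nodal and activin signalling, 6 had the 50 UMIs over both libraries needed for a comparison. Of these 0 were at least 2-fold higher and 1, Nodal itself, lower, beside 1.34% and 0.487% of all genes compared. Smad3, a transducer of the pathway, had 43 and 36 UMIs (29.2 and 16.0 CPM), a log2 ratio of -0.87 (-1.55 to -0.20) for iPCKO over control. Smad2 had a ratio of 0.44 (-0.11 to 1.01) and the receptor Acvr2a one of 0.57 (-0.08 to 1.26). The co-receptor Tdgf1 (6 and 2 UMIs) and the feedback inhibitor Lefty1 (10 and 8 UMIs) were too sparse for a comparison, and Cfc1, Lefty2 and Foxh1 had 0 UMIs in both libraries.

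Over all genes, 8413 had at least 50 UMIs in the 2 groups of pericytes together. Of these, 113 (1.34%) were at least 2-fold higher and 41 (0.487%) at least 2-fold lower in iPCKO pericytes, and the median log2 ratio of all was 0.01. The 113 include 75 genes with fewer than 100 UMIs, and the 41 include 35, so that most of these folds have wide intervals. Of the 113 genes, 16 had over 50% of their iPCKO UMIs in 3 cells, 48 had under 20%, and 14 were detected in at least 20% of the iPCKO pericytes. The folds were ordered by the end of the counting interval nearest to 0, and the 12 leading genes each way are named here. The leading higher genes were Esr1, Rsad2, Cxcl10, Cxcl2, Ccl4, Il1a, Cxcl1, Fbn1, Ly6e, C1qb, Mmp2 and Pdgfrb. The leading lower genes were Nodal, Atpaf1, Slco2a1, Mest, Nrip2, Plekhd1, Ntm, Osbpl6, Bmpr1b, Pkdcc, Mettl7a1 and Gipr. Of these, Ntm was under 2-fold in 5 of 13 alternative settings, up to -0.75, and Mettl7a1 in 2, up to -0.57. Slco2a1, Nrip2, Plekhd1, Bmpr1b and Pkdcc stayed past 2-fold in all of them.

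**Figure D1:**
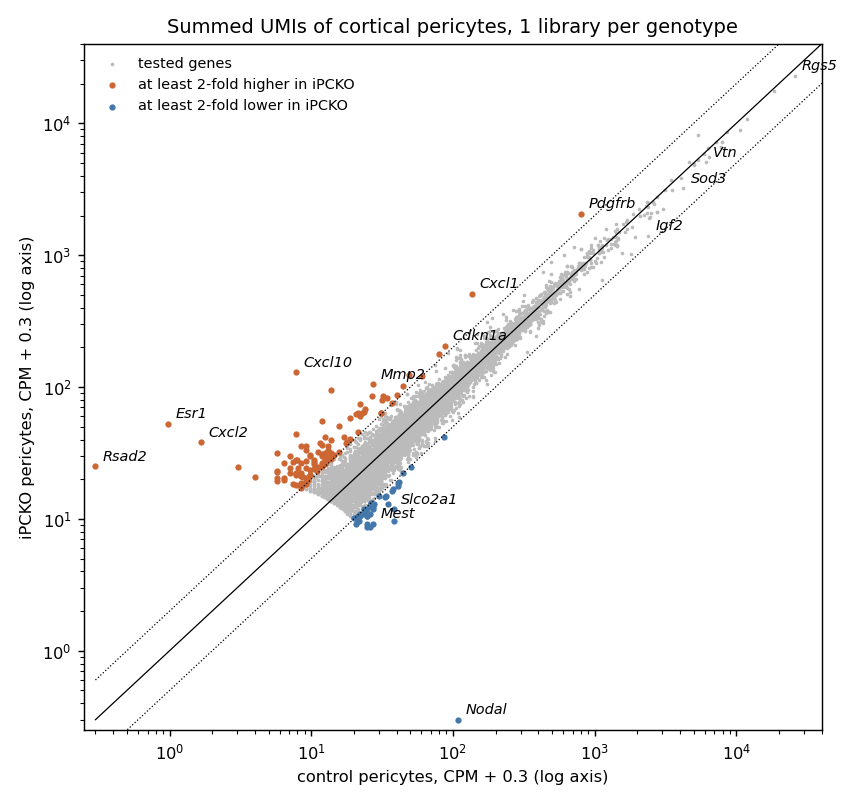
Level of each of 8413 tested genes in control pericytes (horizontal axis) and in iPCKO pericytes (vertical axis), both as CPM plus 0.3 on log axes, 1 library per genotype and 1 point per gene. The solid line marks equal levels and the dotted lines 2-fold; orange points are the 113 higher and blue points the 41 lower genes, and Nodal lies at the bottom with 109 CPM in control and 0 in iPCKO.

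Pdgfrb and Esr1, after which the promoter and the receptor part of Pdgfrb(BAC)-CreERT2 are named, were among the leading higher genes. Pdgfrb, the PDGF receptor of mural cells, had 1182 UMIs (803 CPM) in control and 4634 UMIs (2061 CPM) in iPCKO pericytes, a log2 ratio of 1.36 (1.27 to 1.45). Esr1, the estrogen receptor from whose ligand-binding domain the ERT2 part of such recombinases derives, had 1 UMI in 1 control pericyte and 118 UMIs in 95 iPCKO pericytes (25.4%, 21.1 to 30.1), a log2 ratio of 6.27 (3.76 to 11.59). Both genes differed outside the pericytes as well.

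In vSMC, Esr1 was found in 0 of 110 control and 31 of 140 iPCKO cells, and in endothelial cells in 24 of 799 and 35 of 1445. In fibroblasts it was found in 1 of 86 and 12 of 94 cells, in astrocytes in 0.930 and 3.45% and in microglia in 4.93 and 8.54%. Pdgfrb had 10.2 UMIs in 892 control microglia and 2059 in 1428 iPCKO microglia, where it was found in 1.01 and 68.6% of cells. In astrocytes it was found in 26.2 and 60.7% of cells, and in endothelial cells in 0.626 and 2.56%. Free RNA held 74.7 CPM of Pdgfrb in control and 271 CPM in iPCKO, and its part in these shares was not tested. Pdgfrb is no part of the rule used here. In lung, over all cells, Pdgfrb was at 12.8 CPM in Bdnf lox/lox control and 39.4 CPM in Bdnf iPCKO, and at 13.1 and 64.7 CPM in Hgf lox/lox control and Hgf iPCKO, libraries of P21 mice whose mutants are labelled iPCKO as well. The intervals of the log2 ratio of Esr1 include 0 there, with 2.5 CPM in both libraries of the Bdnf pair (-0.22 to 0.21) and 1.75 and 1.68 CPM in the Hgf pair (-0.47 to 0.35). Pericytes were 0.693 and 0.740% of the cells of these control lungs by the lung rule given below. A difference limited to pericytes could therefore be missed in a sum over all cells.

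Several inflammatory genes were higher in iPCKO pericytes. Of 17 compared members of a list of inflammatory ligands and adhesion genes, 6 were at least 2-fold higher and 0 lower, beside 1.34% and 0.487% of all genes, and 11 did not pass. The median log2 ratio was 0.77 beside 0.01 over all genes. After thinning, 3 of the 12 members still compared were higher (Cxcl1, Cxcl10 and Tnfaip3), beside 34 of 3494 genes in all. Cxcl1, a chemokine that attracts neutrophils, had 200 UMIs (136 CPM) in control and 1150 UMIs (512 CPM) in iPCKO, a log2 ratio of 1.91 (1.69 to 2.14). It was found in 23.1% (18.0 to 28.8) of control and 45.7% (40.6 to 50.9) of iPCKO pericytes, and after thinning in 12.4 and 28.4%. Since 3 cells held 11.7% of its iPCKO UMIs, the difference was spread over cells. In astrocytes, as a class with little Cxcl1, the shares were 1.24 and 3.58% at median depths of 10551 and 11146.5 UMIs.

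The other members reached fewer cells. Cxcl2, a chemokine that also acts on neutrophils, had 2 UMIs in control and 85 in iPCKO, a log2 ratio of 4.80 (2.90 to 7.87), and was found in 6.95% of iPCKO pericytes. Cxcl10, a chemokine induced by interferons, had 11 and 292 UMIs with a ratio of 4.12 (3.26 to 5.14), but 3 cells held 75.3% of the latter. Tnfaip3, an inhibitor of NF-kB signalling, had 39 and 190 UMIs, a ratio of 1.67 (1.17 to 2.21), in 11.6 and 25.1% of cells.

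Ccl2, a monocyte chemokine, had 27 and 131 UMIs with a ratio of 1.67 (1.06 to 2.32). Icam1, an adhesion molecule for leukocytes, had 45 and 141 UMIs with a ratio of 1.04 (0.54 to 1.55), and was under 2-fold in 4 of 13 alternatives, down to 0.29. Members that stayed under 2-fold include Nfkbia, another NF-kB inhibitor, with 434 and 751 CPM (0.79, 0.66 to 0.92), and Nfkbiz with 149 and 254 CPM (0.77, 0.54 to 1.0). Socs3, a feedback inhibitor of cytokine receptors, was at 107 and 93.8 CPM (-0.19, -0.49 to 0.12). The intervals of Nfkbia and Nfkbiz exclude 0 and that of Socs3 does not.

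Some interferon-stimulated genes were higher in iPCKO pericytes. Of 27 compared members of a list of interferon-stimulated and antigen presentation genes, 7 were at least 2-fold higher and 0 lower, beside 1.34% and 0.487% of all genes, with a median log2 ratio of 0.57. After thinning to equal depth 11 members still had 50 UMIs, with a median of -0.020, and the 1 that was higher, Irf1, is none of the 7. Over all genes 34 of 3494 were higher after thinning. Isg15, a ubiquitin-like modifier, had 30 and 140 UMIs, a ratio of 1.61 (1.03 to 2.23), in 9.16 and 13.9% of cells. Rtp4 had 10 and 67 UMIs with a ratio of 2.13 (1.17 to 3.26). Ifit2 had 18 and 93 UMIs (1.76, 1.02 to 2.57) and Ifit3 16.5 and 83.5 estimated UMIs (1.73, 1.0 to 2.65). In iPCKO, 3 cells held 55.9% of the Ifit2 UMIs and 39.1% of the Ifit3 UMIs. Without the 3 top cells of each library the ratios were 0.81 and 1.49.

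Rsad2 (viperin), an antiviral enzyme, had 0 UMIs in control and 56 in 10 iPCKO pericytes, at least 12.2-fold higher against the floor of 3 UMIs, and 3 cells held 82.1% of them. The GTPases Gbp2 and Ifi47 had 15 and 62 UMIs and 19 and 65.8 UMIs, and 3 cells held 54.8 and 25.8% of their iPCKO UMIs. The antigen presentation subunit B2m was at 316 and 499 CPM (0.66, 0.50 to 0.82) and H2-D1 at 137 and 151 CPM (0.14, -0.11 to 0.40). Counted per cell, 0 of 251 control pericytes and 12 of 374 iPCKO pericytes (3.21%, 1.67 to 5.54) held 10 or more UMIs over 10 interferon-stimulated genes of this list. These 10 genes had 217.5 UMIs in control and 1089 in iPCKO pericytes, beside 5119 and 9182 for all 35 members. The count per cell therefore describes these 10 genes and not the whole list. The count of 0 allows up to 1.20% of control cells by the floor of 3 counts and 1.46% by the exact interval. These 12 cells, chosen by the same 10 genes, held 59.4% of their 1089 UMIs in iPCKO pericytes. A single cell held 305 of them, and 1 of them also had 10 or more UMIs of microglia markers.

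Cells of 10 or more UMIs over the microglia and macrophage markers were 1 in control and 2 in iPCKO. Without them 5 of 17 inflammatory members, Icam1 no longer among them, and 7 of 27 interferon members were at least 2-fold higher, beside 102 of 8360 genes in all, and cells with fewer such UMIs remained. Ccl4, Il1a and C1qb behaved otherwise. Ccl4 (a macrophage chemokine, 20 and 214 UMIs), Il1a (4 and 55) and C1qb (a complement subunit of microglia, 8 and 71) had 89.3, 94.5 and 84.5% of their iPCKO UMIs in 3 cells, and without the microglial cells their log2 ratios were 0.12, -0.24 and 0.07. Of the 5 compared microglia and macrophage markers, 4 were at least 2-fold higher (Csf1r, C1qb, C1qc and Cx3cr1), beside 1.34% of all genes, and 0 of the 1 still compared without these cells.

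The promoters of the higher inflammatory and interferon genes are shown because both groups hold genes with well-known binding sequences. Windows of 250 bases before the transcription start (GRCm39, GENCODE vM39, canonical transcript) were searched on both strands for a form of the NF-kB site, GGGA and TTCC with any 2 bases between them, and for a form of the interferon response element, GAAA and GAAA with any 2 bases between them. Of 21757 promoters of protein-coding genes, 284 (1.31%) held the first and 723 (3.32%) the second. Among the 6 higher inflammatory genes 3 held the first (Cxcl1, Cxcl2 and Cxcl10) and 1 the second, and among the 11 compared members under 2-fold 2 held the first and 0 the second. Among the 7 higher interferon genes 5 held the second (Ifit3, Isg15, Ifi47, Rtp4 and Rsad2) and 1 the first, against 4 and 0 of the 20 under 2-fold. A match is a description of letters and no evidence that a factor binds. Stretches around the matches of 6 of these genes are given 5′ to 3′ on the strand of the gene, with the matches in capitals. They lie on chromosome 5 at chr5:91038993-91039083 (plus strand), chr5:91051621-91051711 (plus) and chr5:92496858-92496998 (minus) for Cxcl1, Cxcl2 and Cxcl10, and at chr19:34560733-34560856 (plus), chr4:156285304-156285393 (minus) and chr16:23428555-23428645 (plus) for Ifit3, Isg15 and Rtp4.
Cxcl1: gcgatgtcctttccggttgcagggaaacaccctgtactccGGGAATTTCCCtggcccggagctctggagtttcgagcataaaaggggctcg
Cxcl2: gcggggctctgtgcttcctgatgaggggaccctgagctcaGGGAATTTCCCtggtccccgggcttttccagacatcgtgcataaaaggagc
Cxcl10: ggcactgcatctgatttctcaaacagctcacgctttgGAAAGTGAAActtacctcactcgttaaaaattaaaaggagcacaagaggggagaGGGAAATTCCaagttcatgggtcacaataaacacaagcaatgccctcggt
Ifit3: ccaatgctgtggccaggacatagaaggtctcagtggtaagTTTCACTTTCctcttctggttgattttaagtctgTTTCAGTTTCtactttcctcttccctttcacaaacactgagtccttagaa
Isg15: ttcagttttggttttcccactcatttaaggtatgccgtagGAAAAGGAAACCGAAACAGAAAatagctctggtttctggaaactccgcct
Rtp4: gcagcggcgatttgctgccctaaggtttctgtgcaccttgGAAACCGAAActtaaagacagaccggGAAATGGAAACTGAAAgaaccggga

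Cxcl1 and Cxcl2 hold the same letters in capitals, with overlapping matches on both strands, and the Cxcl10 stretch holds both motifs. Isg15 and Rtp4 hold 3 matches of the interferon form each, and runs of capitals longer than a single motif hold overlapping matches.

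**Figure D2:**
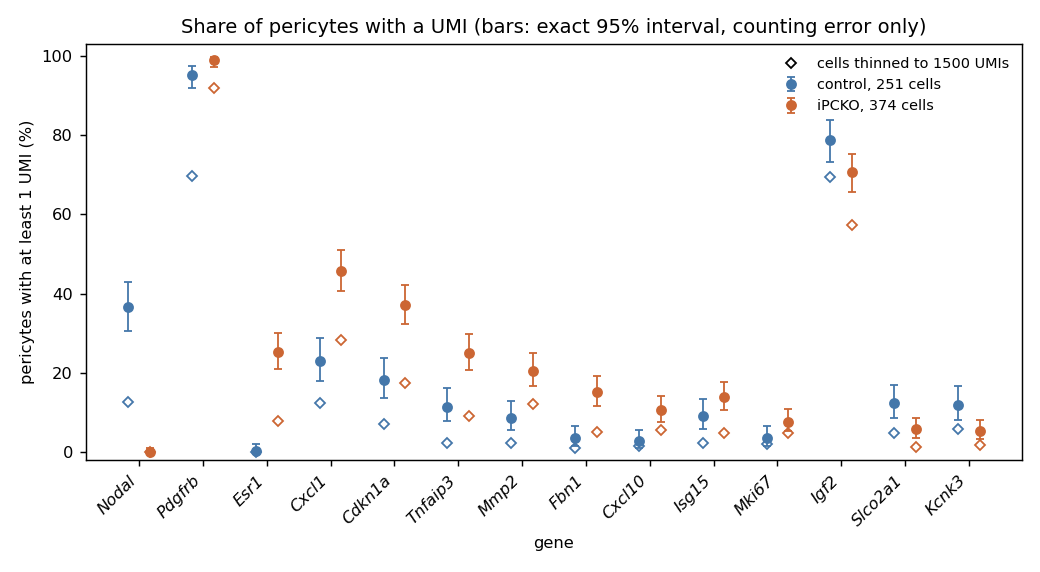
Share of pericytes with at least 1 UMI of each gene (vertical axis, percent) in 251 control (blue) and 374 iPCKO (orange) cells, with exact 95% binomial intervals for counting error, and as open diamonds the share after thinning each cell to 1500 UMIs. Nodal goes from 36.7% to 0, while Esr1, Cxcl1, Cdkn1a, Tnfaip3, Mmp2 and Fbn1 are detected in more iPCKO than control pericytes, and Igf2 in fewer.

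Some cell cycle genes were higher in iPCKO pericytes. Of 26 compared members 10 were at least 2-fold higher and 0 lower, beside 1.34% and 0.487% of all genes, with a median log2 ratio of 0.65. After thinning, 1 of the 10 still compared was higher, beside 34 of 3494 genes in all. Mki67, a marker of proliferating cells, had 50 and 186 UMIs (1.28, 0.83 to 1.76) in 3.59 and 7.75% of cells, and the cyclin Ccna2 had 46 and 179 UMIs (1.35, 0.87 to 1.85). A set of 11 proliferation genes held Mki67, Top2a, Ccna2, Ccnb1, Ccnb2, Cdk1, Birc5, Cenpf, Cenpa, Ube2c and Tpx2. Cells with 5 or more UMIs over these 11 genes were 9 of 251 in control (3.59%, 1.65 to 6.70) and 27 of 374 in iPCKO (7.22%, 4.81 to 10.3), and these intervals overlap. These cells held 85.7 and 92.1% of the UMIs of the 11 genes by which they were chosen. Without them 1 of the 12 members still compared was 2-fold higher, beside 81 of 8026 genes in all, with a list median of 0.23. This drop follows in part from the choice of the cells by genes of the same list.

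The member higher in both of these countings was Cdkn1a (p21), an inhibitor of the cell cycle that p53 induces. Cdkn1a had 130 UMIs (88.3 CPM) in control and 463 UMIs (206 CPM) in iPCKO pericytes, a log2 ratio of 1.22 (0.94 to 1.51), in 18.3 and 37.2% of cells. After thinning the shares were 7.17 and 17.4%. It is in 2 of the lists, cell cycle genes and circadian and glucocorticoid genes, and was the only 1 of 18 compared members of the latter past 2-fold, beside 1.34% of all genes higher.

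Of 28 compared genes of the basement membrane and matrix, 1 (Mmp2) was at least 2-fold higher and 0 lower, beside 1.34% and 0.487% of all genes, with a median of 0.01. Mmp2, the gelatinase that cleaves collagen IV, had 40 UMIs (27.2 CPM) in control and 236 UMIs (105 CPM) in iPCKO, a log2 ratio of 1.95 (1.46 to 2.47), in 8.76 and 20.6% of cells. The collagen IV chains Col4a1 (5949 and 5838 CPM, -0.03, -0.07 to 0.01) and Col4a2 (2757 and 2747 CPM, -0.01, -0.06 to 0.05) were level. Outside the list, Col6a2, a collagen VI chain, had a ratio of 1.01 and was found in 31.6% of iPCKO pericytes, and Fbn1 (fibrillin) had 11 and 98 UMIs with a ratio of 2.54 (1.64 to 3.59), in 3.59 and 15.2% of cells. Members of the list under 2-fold include Timp3, an inhibitor of matrix proteases, at 226 and 357 CPM (0.66) and fibronectin (Fn1) at 149 and 214 CPM (0.52).

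Of 23 compared genes of TGF-beta and BMP signalling, 1 was 2-fold higher and 0 lower, beside 1.34% and 0.487% of all genes, with a median of 0.00. Tgfbi, a matrix protein induced by TGF-beta, had 13 and 61 UMIs, a log2 ratio of 1.62 (0.74 to 2.61). The target genes Smad7 (44.9 and 50.3 CPM), Id1 (57.8 and 47.6 CPM) and Id3 (357 and 397 CPM) had intervals that include 0. Bmpr1b, a BMP receptor outside the list, was among the leading lower genes with 60.3 and 39 UMIs (-1.24, -1.85 to -0.63), in 18.7 and 9.89% of cells.

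Among growth factors, Igf2 was lower in iPCKO pericytes without reaching 2-fold. Of 22 compared members of a list of growth factors and other secreted proteins 0 passed 2-fold either way, with a median of -0.08. Igf2, an imprinted growth factor, had 2393 CPM in control and 1403 CPM in iPCKO, a log2 ratio of -0.77 (-0.84 to -0.70), and was found in 78.9 and 70.6% of pericytes. The extracellular superoxide dismutase Sod3 was at 4230 and 3217 CPM (-0.40, -0.44 to -0.35), the heparin-binding factor Ptn at 4080 and 3855 CPM (-0.08, -0.13 to -0.03) and Angpt1, the ligand of the endothelial receptor Tie2, at 68.6 and 66.7 CPM (-0.04, -0.41 to 0.34). Of 8 compared imprinted growth genes, 1 was lower and 0 higher, beside 1.34% higher and 0.487% lower over all genes, with a median of -0.22. This was Mest, with 40 and 20 UMIs and a ratio of -1.61 (-2.46 to -0.80), and -0.39 after thinning.

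Of 21 compared channels, pumps and genes of cGMP signalling, 1 was lower and 0 higher, beside 1.34% higher and 0.487% lower over all genes. The list holds Kcnj8 and Abcc9, markers that chose the cells, and their values describe the rule. Of the 21 members 6 lay above 0 (median -0.17), beside 4375 of all 8413 genes compared. Kcnk3, a potassium leak channel, had 49 and 33 UMIs (-1.18, -1.86 to -0.52), and was under 2-fold in 2 of 13 alternatives, down to -0.33 with 0 UMIs on the other-cell genes. Of 14 compared solute carriers 0 passed 2-fold and 5 lay above 0 (median -0.17), beside the same 4375 of 8413 genes. Slco2a1, a prostaglandin transporter outside that list, had 55.6 and 26 UMIs (-1.71, -2.45 to -1.02). Gipr, the receptor for a gut hormone and in control particular to pericytes among the classes compared, had 59.5 and 41.5 UMIs (-1.13, -1.73 to -0.53). It was under 2-fold in 2 of 13 alternatives, down to -0.58.

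The 25 other mural identity genes had 1 higher member, Pdgfrb, and 0 lower members, beside 1.34% and 0.487% of all genes, and a median of -0.06. Of the other lists, none of 14 compared Notch, PDGF and Wnt components (median -0.12), 22 contractile and cytoskeletal genes (0.00), 16 heat shock and stress genes (0.00), 18 hypoxia and glycolysis genes (-0.05) and 13 mitochondrially encoded genes (-0.24) passed 2-fold. Among 31 immediate-early genes, which respond within minutes to dissociation and other stimuli, 1 was higher (Maff, 59 and 196 UMIs, 1.12, 0.69 to 1.57) and 0 lower, beside 1.34% higher and 0.487% lower over all genes, with a median of 0.16. Maff was under 2-fold in 4 of 13 alternatives, the lowest at 0.68. Fos was at 2309 and 2356 CPM and Egr1 at 1316 and 1318 CPM. Of the 2 compared sex-linked genes, Xist was at 434 and 431 CPM and the Y-linked Ddx3y at 25.8 and 30.2 CPM, so that both libraries held RNA of both sexes in like proportions.

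**Figure D3:**
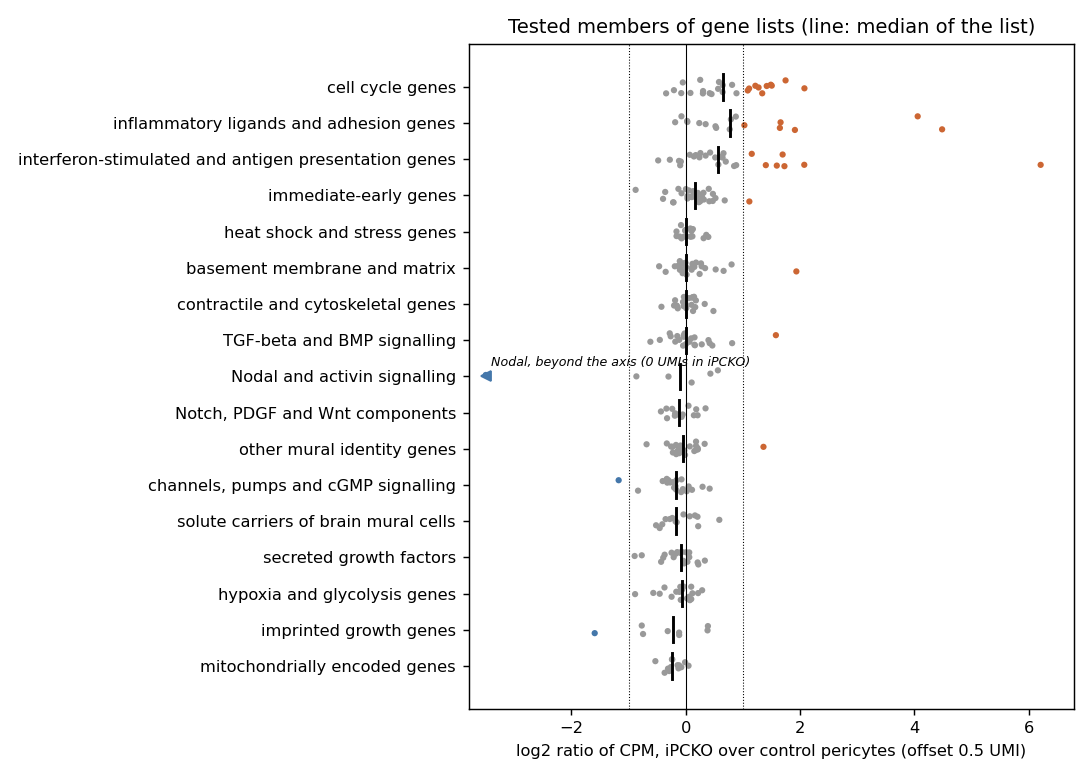
Log2 ratio of CPM, iPCKO over control pericytes (horizontal axis, offset of 0.5 UMI), of each compared member of 17 gene lists (vertical axis), 1 point per gene, with the median of each list as a black line and 2-fold as dotted lines. Inflammatory (median 0.77), cell cycle (0.65) and interferon genes (0.57) lie to the right of 0, the other medians lie between -0.24 and 0.16, and Nodal, beyond the axis, is drawn as a triangle.

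The same genes in other cell classes of the 2 libraries were set side by side. These classes were 110 and 140 vSMC, 799 and 1445 endothelial cells, 645 and 754 astrocytes, 892 and 1428 microglia and 86 and 94 fibroblasts, chosen by rules of the same form, and they share the libraries and free RNA with the pericytes. The vSMC include the 16 and 19 cells that also met the pericyte rule, and the iPCKO astrocytes include 1 such cell. Cxcl1 had log2 ratios of 1.25 (1.01 to 1.49) in vSMC, 1.14 (1.04 to 1.25) in endothelial cells, 1.67 (0.68 to 2.78) in astrocytes, 0.35 (-0.36 to 1.09) in microglia and 1.16 in free RNA, beside 1.91 in pericytes. In pericytes, vSMC, endothelial cells and astrocytes the interval of Cxcl1 lay above 0, and in microglia and fibroblasts (0.75, -0.02 to 1.56) it included 0.

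Cxcl10 had ratios of 3.88 (2.92 to 5.03) in astrocytes and 1.54 (1.46 to 1.62) in microglia, beside 4.12 in pericytes. In vSMC it had 8 and 18 UMIs (1.12, -0.15 to 2.53), in 4.55 and 4.29% of cells. Mmp2 was at 256 and 276 CPM in fibroblasts (0.10, -0.12 to 0.33) and had a ratio of 1.08 (-0.01 to 2.25) in vSMC. Fbn1 had a ratio of 2.54 in pericytes, 0.78 (-0.10 to 1.70) in vSMC and 0.29 (0.01 to 0.57) in fibroblasts. Cdkn1a was lower in astrocytes (-0.59, -0.89 to -0.29) and had a ratio of 1.20 (0.89 to 1.52) in fibroblasts. Igf2 had ratios of -0.35 (-0.38 to -0.31) in fibroblasts and 0.08 (-0.29 to 0.44) in vSMC, beside -0.77 in pericytes. Differences between classes were not tested.

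**Figure D4:**
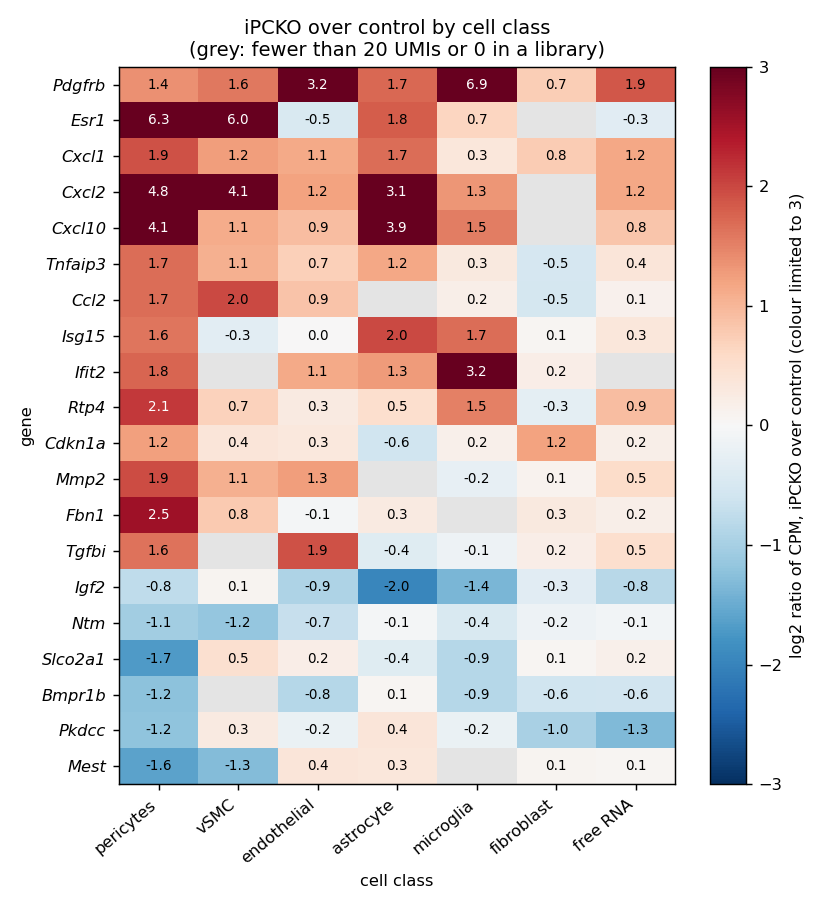
Log2 ratio of CPM, iPCKO over control, for 20 named genes (vertical axis) in pericytes, 5 other cell classes and free RNA (horizontal axis), with the value printed in each field, colours limited to 3 and grey fields where a gene had under 20 UMIs or 0 in a library. Cxcl1 is higher in pericytes (1.91), vSMC (1.25) and endothelial cells (1.14), and Slco2a1 is lower in pericytes (-1.71).

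A stretch of chromosome 5 was higher across most of its genes, in pericytes and in every other class compared. It was noticed after the values were seen, since 6 of the 113 higher genes (Guf1, Commd8, Kdr, Exoc1, Cep135 and Ppat) are neighbours there, and its ends were set at Arap2 and Igfbp7, chr5:62759788-77555931 (GRCm39). Of its 50 compared genes, 48 (96.0%) had a log2 ratio above 0 in pericytes, with a median of 0.53 and quartiles of 0.39 and 0.83. This is 1.44-fold over the median of other chromosomes, at 0.01. In flanks of the same length, 14.8 Mb, the medians were -0.04 (10 genes) and 0.04 (17 genes), and the rest of the chromosome had -0.01 over 474 genes. When the genome was cut into 411 runs of 20 neighbouring compared genes, the 2 runs wholly inside the stretch had the highest medians of all, at 0.55 and 0.43, and the lowest run of all had -0.18.

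Genes of the stretch with different roles are given as examples. Igfbp7, a secreted binding protein of insulin-like growth factors, had a log2 ratio of 0.60 (0.56 to 0.64), the ribosomal gene Rpl9 0.73 (0.61 to 0.84), the transcription factor Klf3 0.48 (0.14 to 0.84), the circadian gene Clock 0.46 (0.03 to 0.90) and Ociad1 0.44 (0.26 to 0.63). In the other cortical classes Igfbp7 ranged from 0.59 in endothelial cells to -0.51 in fibroblasts. It was at -0.02 in the Bdnf lung pair and 0.02 in the Hgf lung pair. Kdr, the endothelial VEGF receptor, had 1.31 (0.70 to 2.07) and Kit, a receptor tyrosine kinase, -0.09 (-0.55 to 0.37). Without the stretch, 107 of 8363 genes (1.28%) were at least 2-fold higher in iPCKO pericytes. Cxcl1, Cxcl2 and Cxcl10 lie on the same chromosome outside the stretch.

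The other cells had like medians over the stretch, 0.49 in vSMC, 0.50 in endothelial cells, 0.62 in astrocytes, 0.43 in microglia, 0.54 in fibroblasts and 0.51 in free RNA. The lung libraries, which had no part in setting its ends, were then compared over all cells (17469 and 25001 cells for Bdnf lox/lox control and Bdnf iPCKO, 13512 and 14926 for Hgf lox/lox control and Hgf iPCKO). The median was 0.59 over 164 genes in the Bdnf pair, with 147 above 0, and 0.48 over 116 genes in the Hgf pair, with 94 above 0, against 0.01 and 0.04 on other chromosomes. Between the control lungs, Bdnf over Hgf, it was 0.21 against 0.08. The stretch was thus higher in each of the 3 libraries labelled iPCKO than in its control. Each differs from its control in the transgene, the deleted gene and the mice. The deleted gene is another one in each pair (Nodal, Bdnf or Hgf). Within a pair the transgene, the deleted gene and the mice cannot be told apart, and the cause was not tested.

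**Figure D5:**
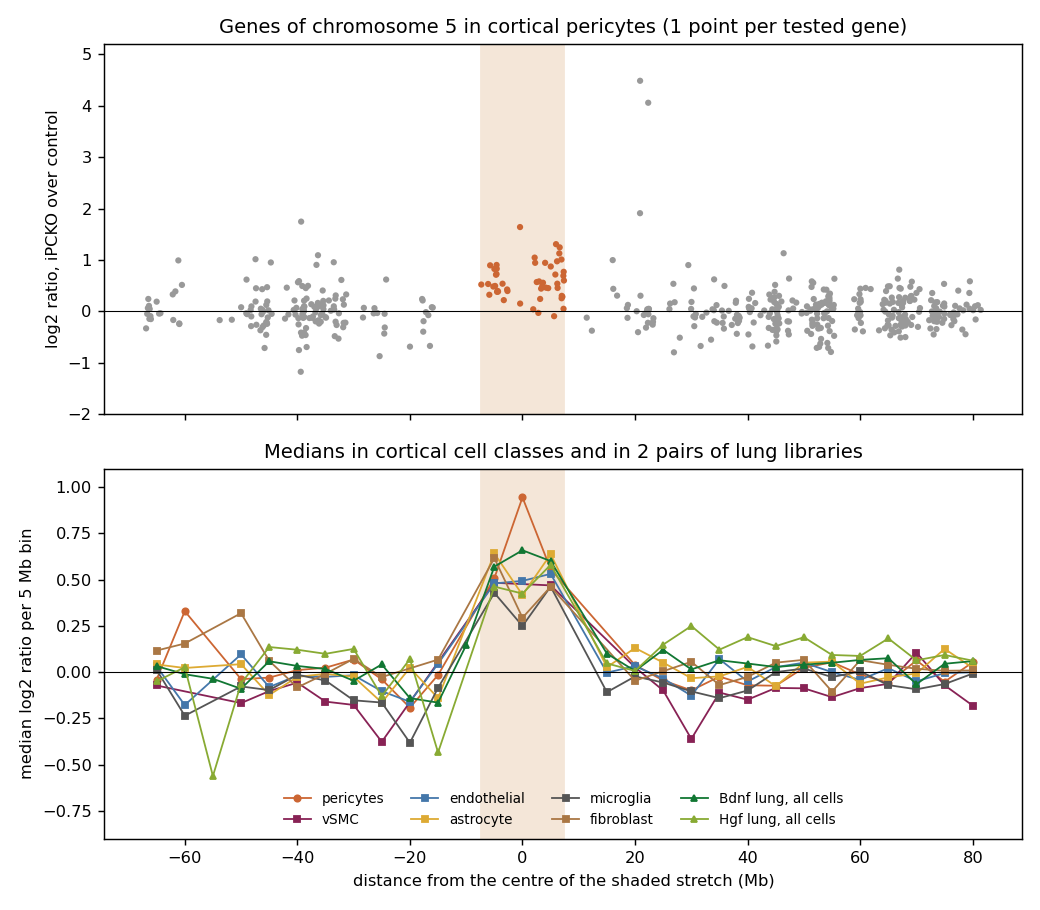
Upper panel, log2 ratio of iPCKO over control pericytes (vertical axis) for each compared gene of chromosome 5 by its distance in Mb from the centre of the stretch (horizontal axis, shaded), with genes of the stretch in orange. Lower panel, median log2 ratio in bins of 5 Mb with at least 5 genes in pericytes, 5 other cortical classes and all cells of the Bdnf and Hgf lung pairs. Over the shaded stretch 48 of 50 genes lie above 0 in pericytes and the bin medians of all cells shown lie above 0; the highest points, outside it, are Cxcl2, Cxcl10 and Cxcl1.

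Genes particular to pericytes beside the 5 other cortical classes were sought in the control library. Neurons and cells of the oligodendrocyte lineage were not among these classes. Of 5034 genes with at least 50 UMIs in control pericytes, 105 (2.09%) were at least 2-fold above the highest of the 5 other classes. The cells were chosen by their transcripts and the genes by their control levels, so these levels are descriptions, and a lower value in iPCKO is in part built into the choice. Rule genes aside, those with the highest ratio to the next class included Pla1a, Nodal, Sfrp2, Gipr, Ffar2, Sod3, Chp2, Rflna, Nr1h3, Nts, Ddit4l, Sdc3, Trpc4 and Cpm. Pla1a, a phospholipase of phosphatidylserine, was at 154 CPM against 2.01 CPM in vSMC, and Sfrp2, a secreted modulator of Wnt signalling, at 194 CPM against 4.47 CPM in astrocytes. Sod3 was at 4230 CPM against 243 CPM in fibroblasts. In iPCKO pericytes Pla1a was at 175 CPM, Sfrp2 at 129 CPM, the neuropeptide gene Nts at 62.7 CPM after 108 in control, and the nuclear receptor gene Nr1h3 at 28.5 CPM after 48.3.

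Control cortical pericytes were last set beside pericytes of 2 control lungs at P21. A rule for the lung (at least 1000 UMIs, at most 25% mitochondrial UMIs, at least 4 of Gucy1a1, Gucy1b1, Higd1b, Cox4i2, Pdgfrb, Notch3, Kcnk3 and Trpc6, and at most 2 UMIs on genes of other cells) found 121 of 17469 cells (0.693%) of Bdnf lox/lox and 100 of 13512 (0.740%) of Hgf lox/lox mice. Organ, age, dissociation, depletion of CD45+ cells and erythrocytes, and library cannot be told apart in this comparison. Of 7222 genes compared, 194 (2.69%) were at least 4-fold higher in cortical pericytes than in both lungs and 364 (5.04%) at least 4-fold lower. Rule genes of either organ, such as Atp13a5 (1397 CPM and 0 CPM in both lungs) and Kcnk3 (33.3 CPM against 980 and 1196 CPM), are descriptions here. In the Bdnf lung 1 cell held 24.2% of the pericyte UMIs, and without it 206 genes were higher and 324 lower.

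The leading higher genes other than Atp13a5 were Zic1, Ptn, Slc6a20a, Xist, Casq2, Slc22a8 and Gper1. Zic1, a transcription factor of neural tissue, had 1045 UMIs (710 CPM) in cortical and 0 in lung pericytes, at least 136-fold and 54.6-fold higher against 3 UMIs per lung library. Ptn was at 4080 CPM against 12.1 and 0 CPM. The transporter genes Slc6a20a (569 CPM) and Slc22a8 (369 CPM) had 0 to 1 UMIs in each lung. In free RNA of the control cortex Slc22a8 was at 388 CPM and Xist at 1275 CPM, above their levels in pericytes. The other leading higher genes were below their pericyte levels there. Xist, made by cells with more than 1 X chromosome, was at 434 CPM in cortex and 0 in both lungs, so that sex cannot be told apart from organ either.

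The leading lower genes were Tbx5, Gpx3, Adcy8, Sftpc, Scgb1a1, Tbx4, Cd36 and Ltbp2. Tbx5 and Tbx4, transcription factors of lung mesenchyme, had 0 UMIs in cortex and 846 and 1148 CPM (Tbx5) and 392 and 403 CPM (Tbx4) in the lungs. Sftpc and Scgb1a1, products of lung epithelium, had 501 and 732 CPM and 484 and 520 CPM in lung pericytes, below the free RNA of these lungs (9538 and 12889 CPM of Sftpc, 11273 and 13484 CPM of Scgb1a1). Among secreted factors Igf2 (2393 CPM against 46.8 and 36.8 CPM), Ptn and Sod3 (4230 against 434 and 438 CPM) were higher in cortex. Angpt1 (68.6 CPM against 683 and 728 CPM), Hgf (1 UMI, 0.68 CPM, against 130 and 121 CPM), Fgf1 (6.12 against 85.9 and 65.0 CPM) and Postn (131 against 2186 and 1954 CPM) were lower. Of the 20 compared secreted growth factors 3 were higher and 4 lower, beside 2.69% and 5.04% of all genes, but without the deepest Bdnf lung cell Fgf1 was at 26.3 CPM in that lung and no longer counted as lower. Fgf1 and Cd36 in lung pericytes were also below the free RNA of these lungs (131 and 163 CPM of Fgf1, 1102 and 1453 CPM of Cd36). Nodal had 160 UMIs in control cortical pericytes and 0 in the pericytes of both lungs, at least 20.9-fold and 8.36-fold higher. Bdnf had 18 UMIs (12.2 CPM) in control cortical pericytes against 10 and 1 UMIs (17.3 and 4.33 CPM) in lung pericytes. It was too sparse to be among the genes compared. Its levels in lung pericytes were also below the free RNA of these lungs (33.7 and 31.2 CPM). These values therefore do not show whether Bdnf differs between cortical and lung pericytes.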

How the data were processed

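Per the authors' methods, reads were aligned and UMIs counted with STARsolo (STAR 2.7.10a, also named in the submitters' processing notes) on GRCm39 with multi-mapping reads shared between genes by expectation maximization. The methods name Gencode vM33 and the data availability statement M26. The deposited matrices hold estimated counts of UMIs without normalization, for every combination of 3 barcode parts, and were used as deposited, with rounding where an exact interval or thinning needed whole numbers.

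UMIs of cells in a class were summed per library and scaled to CPM (python 3.11.15, numpy 2.4.6, scipy 1.17.1, pandas 2.3.3). Genes with at least 50 UMIs over both groups were compared, and 2-fold (lung, 4-fold in both) was the call. No doublet caller was run; the limit on other-cell genes removes part of the doublets. With 1 library per group there is no test. Named genes were the 12 with the largest interval bound each way, list members past 2-fold or with the most UMIs, 15 genes particular to pericytes, 8 each way against lung, secreted factors, and Bdnf and Hgf. Genes of the chromosome 5 stretch and other members cited under 2-fold were named after their values were seen. Symbols that occur more than once (147) and gene models were not named. Some genes that the rule names are not reported here. The rule and the 30 gene lists were chosen with earlier results of these data known. Positions and promoters are from GENCODE vM39 on GRCm39, matched by gene ID for 8407 of 8413 compared genes. The scripts were tested on simulated data. Alternatives changed 1 setting at a time: minimum UMIs, number of markers, limit on other-cell genes, mitochondrial share, scaling, thinning, whole-number entries, subtraction of free RNA, gene minimum and cells left out. Those that leave out cells by microglial, cycling or vSMC genes, the 3 top cells per gene or the deepest lung cell were chosen after seeing the data.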

Additional observations from a re-analysis of the deposited data

Results flagged for a closer look

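In 3 cases a named gene with at least 50 UMIs in a class was past 2-fold one way in pericytes and past 2-fold the other way in that class of the same 2 libraries. The differences were not tested. Atpaf1, an assembly factor of the mitochondrial ATP synthase, had a log2 ratio of -2.02 (-2.82 to -1.28) in pericytes and 2.12 (1.15 to 3.20) in fibroblasts, from 55.9 and 21 estimated UMIs in pericytes and 11 and 49.3 in fibroblasts. In pericytes it was under 2-fold in 3 alternatives, at -0.92 with whole-number entries only, -0.61 without its top cells and 0.16 with 0 UMIs on the other-cell genes. Csf1r, a microglial receptor, had 1.11 (0.30 to 1.98) in pericytes, where 3 cells held 71.4% of its iPCKO UMIs, and -2.05 (-3.21 to -1.02) in fibroblasts. Cenpf, a kinetochore gene of dividing cells, had 2.13 (1.24 to 3.14) in pericytes and -1.08 (-1.91 to -0.30) in vSMC. Opposite directions under 2-fold occurred too, as for Cdkn1a, at 1.22 in pericytes and -0.59 (-0.89 to -0.29) in astrocytes.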

How the results depend on the processing

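Of 1009 recomputed values, 918 stayed within the range set for them (the interval of a gene, the SD among members of a list), 72 moved and 19 past 2-fold changed sign. The 918 include wide moves within that range, such as the interferon median from 0.57 to -0.020 after thinning and the cell cycle median from 0.65 to 0.23 without cycling cells. No paired analysis was possible because each genotype is 1 library, and for the same reason no replicate could be left out. With 0 UMIs allowed on the other-cell genes, pericytes were 4.94% of control and 4.25% of iPCKO cells. The log2 bound of Nodal was -6.35, and -5.28 with that limit, -6.09 at a mitochondrial share of at most 10% and -4.48 after thinning. The 113 higher genes became 34 after thinning (11 shared), 200 without the 3 top cells of each gene (104 shared) and 311 at a minimum of 20 UMIs. The 41 lower genes became 211 at 3 markers (33 shared), 22 with 0 other-cell UMIs (4 shared), 11 after thinning (0 shared) and 202 at 20 UMIs. List medians moved for cell cycle genes (1.52) and smooth muscle markers (-0.58) with 0 other-cell UMIs, neuron markers (-2.39) at 3 markers, microglia markers (0.55) with free RNA subtracted and endothelial markers (-0.036) after thinning. The microglia median changed sign to -0.15 with 0 other-cell UMIs, -0.086 after thinning, -0.091 without microglial cells and -0.091 without the top cells. Of 48 named genes past 2-fold, 20 stayed so in every alternative, 11 in all but 1, and 17 in fewer. Signs changed with 0 other-cell UMIs for Il1a (-0.46), Atpaf1 (0.16) and C1qc (-1.74). They changed without microglial cells for Il1a (-0.24), Csf1r (-0.23), C1qc (-0.35) and Cx3cr1 (-0.81), and without the top cells for Csf1r (-0.091), C1qc (-0.18) and Cx3cr1 (-0.69). Without cycling cells, Mki67 (-0.23), Ccnb1 (-2.10), Ccnb2 (-0.13), Birc5 (-0.10) and Cenpf (-0.52) did, as fewer UMIs remained. After thinning, members past 2-fold were 1 of 11 instead of 7 of 27 for interferon genes (Irf1, none of the 7), 1 of 10 instead of 10 of 26 for cell cycle genes (Cdkn1a) and 3 of 12 instead of 6 of 17 for inflammatory genes. Over all genes 34 of 3494 were higher at that depth. Other causes were not tested. Depth limits genes under 50 UMIs, which include most ligands and co-receptors of the Nodal pathway.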

Other observations

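Some members of the lists stayed under 50 UMIs over both groups of cortical pericytes and were not among the compared genes. Il6, a cytokine, had 1 UMI in control and 20 UMIs in iPCKO pericytes, 90.0% of them in 3 cells. Vcam1, an adhesion molecule, had 4 and 11 UMIs, and Ccl7 0 and 1. Bdnf had 18 UMIs in 3.98% of control and 8 UMIs in 1.87% of iPCKO pericytes, with a log2 ratio of -1.78 (-3.19 to -0.51). After thinning the shares were 0.797 and 0.804%. In vSMC, which share some cells with the pericytes, Bdnf was found in 30.0 and 16.4% of cells. Among genes under 2-fold, Cox4i2, a subunit of cytochrome oxidase found in vascular and lung cells, was at 389 and 242 CPM (-0.69, -0.86 to -0.51), the growth factor gene Mdk at 110 and 59.2 CPM (-0.90, -1.24 to -0.56) and Zfp36, which destabilizes cytokine mRNA, at 718 and 1152 CPM (0.68, 0.58 to 0.79).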
